A study of Mus musculus with 6 samples.

Results

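The 10 regulators described here sit between the G1 cyclin kinases and the transcription programmes of S phase and mitosis: the E2F factor genes E2f1, E2f2, E2f7 and E2f8, the pocket protein genes Rb1, Rbl1 and Rbl2, the MuvB subunit gene Lin9, and the activator genes Mybl2 and Foxm1. They were taken by symbol from the count files, and all 10 of 10 symbols were found among 48397 in all. The samples were 6 RNA-seq libraries of live EGFP-positive cells sorted from lungs of mouse pups at postnatal day 8, 3 labelled IgG and 3 labelled 5E1. Every pup carried the PdgfraEGFP/+ reporter allele, and the pregnant dams, of the same genotype, had received control IgG or 5E1, an antibody against hedgehog ligands, by intraperitoneal injection at E18.5, late in gestation. The sort therefore reads mesenchymal cells that express the Pdgfra reporter at that age, and cells that lost the reporter were not sampled. The labels do not say whether a library came from 1 pup, a pool or separate litters. The p-values thus reflect no more than the variation among these libraries, which may be technical in part. Y-linked reads (below) differed within each group, so its libraries did not all come from the same pup or pool.

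E2F factors bind DNA at promoters of DNA replication genes and of many cell cycle regulators. E2F1 and E2F2 activate them, and the pocket proteins RB1, RBL1 and RBL2 bind E2Fs and keep their targets off until cyclin-dependent kinases phosphorylate the pocket proteins. E2F7 and E2F8 are atypical members that bind DNA without a DP partner and repress the same targets later in S phase, and E2f7, E2f8, Rbl1 and Mybl2 are themselves known E2F targets. LIN9 is a scaffold of the MuvB core, which forms the repressive DREAM complex with RBL2 or RBL1 in resting cells and joins MYBL2 (B-MYB) and then FOXM1 in cycling cells to switch on mitotic genes. Growth of mesenchyme in the neonatal lung is accompanied by division of these fibroblasts while septa form.

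Promoter sequences of the regulators are shown because most of them moved in the same direction (below) and E2F-bound sites near their starts are textbook features. RefSeq windows (build GRCm38.p6) of 300 bases, from 250 before to 50 after a transcript start, were matched by symbol for 7 of the 10 genes, in 8 windows; Foxm1, Rb1 and Lin9 have no entry. They were searched on both strands for the E2F 8-mers TTTGGCGC, TTTCCCGC, TTTCGCGC and TTTGCCGC, for the shorter E2F core GGCGGGA, which can overlap the reverse of TTTCCCGC, and for TTTGAA, the cell cycle homology region (CHR) bound by MuvB. An E2F 8-mer was present in 3 of the 8 windows (E2f2, E2f7 and Rbl1) and in 2.26% of all 32851 windows. The E2F core was present in 1 window, that of Mybl2, and in 11.3% of all windows, and the CHR in 3 (E2f8, Rbl2 and the downstream window of E2f2) and in 17.9% of all. A match is a description of letters and no evidence of binding. The stretches below run 5′ to 3′ on the gene's strand with the matches in capitals, at chr2:157204535-157204634, minus strand for Rbl1, chr2:163054535-163054634, plus strand for Mybl2, chr10:110745189-110745288, plus strand for E2f7, chr7:48881597-48881696, minus strand for E2f8 and chr8:91069807-91069906, plus strand for Rbl2.
Rbl1: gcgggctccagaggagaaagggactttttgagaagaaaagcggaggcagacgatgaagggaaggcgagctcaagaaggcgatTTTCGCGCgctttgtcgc
Mybl2: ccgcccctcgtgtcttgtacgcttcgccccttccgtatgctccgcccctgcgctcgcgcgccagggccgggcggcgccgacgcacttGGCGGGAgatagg
E2f7: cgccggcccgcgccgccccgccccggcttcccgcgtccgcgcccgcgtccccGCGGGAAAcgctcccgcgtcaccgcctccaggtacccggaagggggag
E2f8: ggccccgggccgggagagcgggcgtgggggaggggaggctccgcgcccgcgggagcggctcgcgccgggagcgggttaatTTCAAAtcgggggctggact
Rbl2: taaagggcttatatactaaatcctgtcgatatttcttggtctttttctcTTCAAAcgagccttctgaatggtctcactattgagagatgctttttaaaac
Counted from the transcript start, the matches began at position -18 in Rbl1, -13 in Mybl2, -198 in E2f7, -20 in E2f8 and -201 in Rbl2. In the upstream window of E2f2 the match lay at position 40 after the start, in the stretch gcatatagTTTGGCGCtaa. The E2f1 window held no match, but it lies 294 bases downstream of the nearest transcript start in GENCODE M21.

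Gene counts summed to between 16958433 and 28405457 in the IgG libraries and between 18857199 and 34318583 in the 5E1 libraries, and all 10 regulators passed the low-count filter. Levels are given as CPM, that is, read counts normalised to library sizes after TMM scaling (trimmed mean of M-values). The sorted cells had the defining genes of fibroblastic mesenchyme in every library, with Pdgfra at 413 to 720 CPM, Tcf21 at 143 to 225 CPM and the summed level of 6 mesenchymal markers at 45608 to 63304 CPM in IgG and 57333 to 102670 CPM in 5E1. Neutrophil markers were higher in 5E1: all 5 of the 8 listed that passed the filter rose, and their summed level was 10.1 to 13.5 CPM in IgG and 110.05 to 185 CPM in 5E1. Of 6 macrophage and leukocyte markers 3 rose (summed level 85.1 to 108 CPM in IgG, 121 to 236 CPM in 5E1), and the early granulocyte genes Mpo and Elane stayed under 0.33 CPM. Among all genes tested 12.1% were called higher. Epithelial (150 to 162 and 151 to 382 CPM), endothelial (60.3 to 83.7 and 53.9 to 172 CPM) and erythroid (116 to 139 and 177 to 838 CPM) sums had no called member. The part of these cells in the results below was not tested. IgG replicate 3 and 5E1 replicate 1 had almost no reads of 4 Y-linked genes (0.0726 and 0.109 CPM, against 195 to 209 CPM in the others). In bulk RNA, fewer cells of a type and less RNA per cell cannot be told apart.

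Of the 10 regulators 6 fell in 5E1 (E2f2, E2f7, E2f8, Rbl1, Lin9 and Foxm1) and none rose, at an edgeR quasi-likelihood adjusted p under 0.05 (Benjamini-Hochberg over all 16198 genes tested). At an unadjusted edgeR p under 0.05, 7 were lower and 0 higher, beside 2906 lower and 3008 higher of all 16198 genes tested. Neither DESeq2 nor limma-voom called any regulator higher. At the adjusted threshold, 11.1% of all genes were called lower and 12.1% higher, 23.2% in all. The median log2 fold change (5E1 over IgG) of the 10 was -1.06, beside 0.00087 over all genes tested. Without IgG replicate 2, IgG replicate 3 or 5E1 replicate 3, 5 fell. Without 5E1 replicate 1, or with the 4 libraries that hold Y-linked reads alone, 7 fell. The libraries without such reads are 1 per group and allow no test. The genes were chosen with earlier results of these data known, so the count describes them and is no independent evidence.

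**Figure D1:**
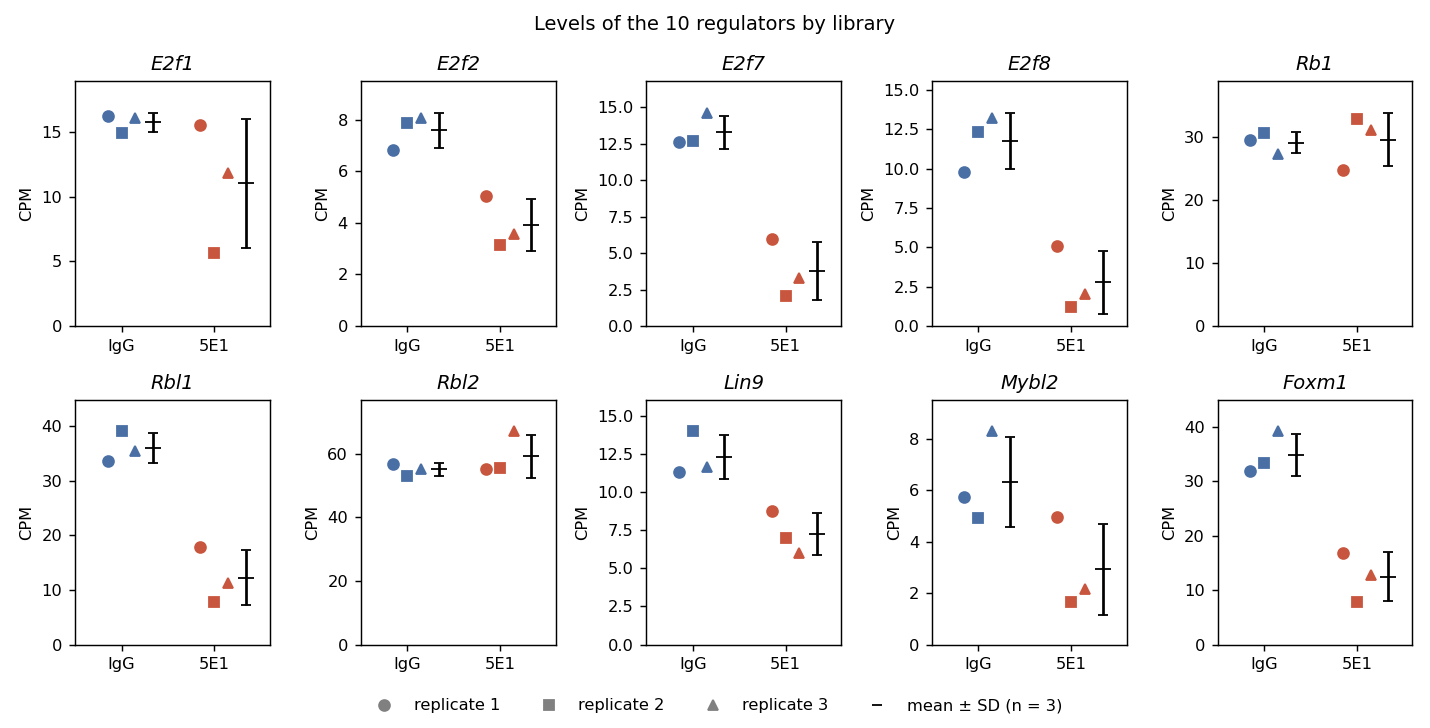
Level (CPM, linear axis from 0) of each of the 10 regulators in the 3 IgG and 3 5E1 libraries, with a marker shape per replicate and the mean ± SD (n = 3) in black. The 5E1 libraries lie below all IgG libraries for E2f2, E2f7, E2f8, Rbl1, Lin9 and Foxm1, and the groups overlap for E2f1, Mybl2, Rb1 and Rbl2.

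Among the activator E2Fs, E2f2 fell and E2f1 did not pass. E2f2 (mm10 chromosome 4, 136172394 to 136196057) measured 6.81, 7.90 and 8.06 CPM in IgG replicates 1 to 3 and 5.05, 3.13 and 3.57 CPM in 5E1 replicates 1 to 3. The groups did not overlap (all 5E1 libraries were below all IgG libraries for 21.4% of genes tested), with a log2 fold change of -0.97 (SE 0.22, edgeR adjusted p 0.0102). E2f1 (chromosome 2, 154559407 to 154569892) measured 16.2, 14.9 and 16.1 CPM in IgG, a narrow range, and 15.5, 5.66 and 11.9 CPM in 5E1. The first 5E1 library thus lay inside the IgG range and the others below it. Its change on the log2 scale was -0.53 (SE 0.32, 95% interval -1.26 to 0.20) with an edgeR adjusted p of 0.270. Over 15 alternative settings the adjusted p ran from 0.0103 to 0.422, and only the fit with no low-count filter passed.

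The atypical repressor genes E2f7 and E2f8 had the largest decreases of the 10. E2f7 measured 12.6, 12.7 and 14.6 CPM in the IgG libraries and 5.98, 2.08 and 3.31 CPM in the 5E1 libraries. The highest 5E1 value was under the lowest IgG value, with a log2 fold change of -1.85 (SE 0.32, edgeR adjusted p 0.0040, 3.60-fold lower). E2f8 measured 9.78, 12.3 and 13.2 CPM in IgG and 5.05, 1.19 and 2.06 CPM in 5E1, again with no overlap. It changed by a log2 value of -2.15 (SE 0.46, edgeR adjusted p 0.0145, 4.43-fold lower). The call of E2f8 ended without IgG replicate 2 (adjusted p 0.0504), IgG replicate 3 (0.0513) or 5E1 replicate 3 (0.0665), the range over its alternatives being 1.38e-11 to 0.0665. The merged exons of E2f8 share 610 bases with Gm2788 on the opposite strand, a gene at no more than 0.336 CPM in any library.

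The pocket protein genes split, with Rbl1 lower and no call for Rb1 or Rbl2. Rbl1 measured 33.5, 39.0 and 35.5 CPM in IgG and 17.8, 7.74 and 11.2 CPM in 5E1. Its groups were well apart, with a log2 fold change of -1.57 (SE 0.27, edgeR adjusted p 0.00558, 2.98-fold lower), and it was called in all 15 alternatives. Rb1, the retinoblastoma gene (chromosome 14, 73183673 to 73325822), measured 29.5, 30.6 and 27.3 CPM in IgG and 24.8, 32.9 and 31.1 CPM in 5E1. Its 5E1 values lay on both sides of the IgG range, with a log2 fold change of 0.03 (SE 0.12, edgeR adjusted p 0.893). The 95% interval of -0.23 to 0.29 leaves out a decrease of the size seen in Rbl1. Rbl2, the pocket protein gene most tied to resting cells, measured 56.9, 53.0 and 55.4 CPM in IgG and 55.3, 55.4 and 67.0 CPM in 5E1. The groups overlapped, at a log2 fold change of 0.10 (SE 0.095, interval -0.11 to 0.31, edgeR adjusted p 0.470). With library size alone as the scaling the signs of Rb1 (-0.12) and Rbl2 (-0.045) turned, neither being called, while the median of all genes moved to -0.14. Exons of Rb1 overlap Rcbtb2 and Lpar6 over 896 bases and those of Rbl2 overlap Aktip and Gm45464 over 1585 bases, all on the opposite strand. The strand setting of the counting is not given in the sources used here, so these counts may hold reads of, or lack reads shared with, those genes.

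Within a library, Rbl1 could be set against its relatives with no scaling between libraries. The log2 ratio of Rbl1 to Rbl2 reads was -0.76, -0.44 and -0.64 in IgG and -1.64, -2.84 and -2.58 in 5E1. The groups did not overlap, and the ratio was lower by a difference of -1.73 in 5E1. Against Rb1 the difference was -1.65, from a mean of 0.30 ± 0.10 to -1.35 ± 0.81 (SD, n = 3). For each of these ratios the exact two-sided permutation p was 0.1, the smallest that 3 against 3 libraries allow, and 0.14 adjusted over the 7 ratios computed.

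Lin9, the MuvB scaffold gene (chromosome 1, 180641150 to 180690694), fell. It measured 11.3, 14.0 and 11.7 CPM in IgG and 8.75, 7.03 and 6.001 CPM in 5E1, with every 5E1 library under every IgG library. The change was -0.77 on the log2 scale (SE 0.18, edgeR adjusted p 0.0111). Lin9 was called in all 15 alternatives, but narrowly without IgG replicate 2 (edgeR adjusted p 0.04985) and without 5E1 replicate 3 (0.0466). Mybl2, whose product docks on MuvB, measured 5.72, 4.93 and 8.28 CPM in IgG and 4.94, 1.67 and 2.17 CPM in 5E1. The first 5E1 library and the second IgG library were nearly equal, so the groups overlapped. It missed the threshold, at a log2 fold change of -1.15 (SE 0.39) and an edgeR adjusted p of 0.0597. It passed in 7 of 15 alternatives, among them DESeq2 (0.0134), the term for Y-linked reads (0.00982) and the fit without 5E1 replicate 1 (0.00310), with a range of 7.00e-05 to 0.191.

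Foxm1, the gene of the forkhead activator of G2 and mitotic genes (chromosome 6, 128362967 to 128376146), fell in 5E1. It measured 31.9, 33.3 and 39.1 CPM in IgG and 16.8, 7.74 and 12.85 CPM in 5E1, with no overlap. The change was -1.50 on the log2 scale (SE 0.25, edgeR adjusted p 0.00488, 2.82-fold lower), and it was called in all 15 alternatives (adjusted p 5.12e-24 to 0.0242). Its exons share 241 bases with Tex52 and Gm44596 on the same strand. Relative to E2f1 in the same library, the log2 ratio of Foxm1 reads was 0.98, 1.16 and 1.28 in IgG and 0.12, 0.45 and 0.12 in 5E1. E2f7 and E2f8 were lower relative to E2f1 as well, by differences of -1.30 and -1.69, with no overlap between groups. These 3 ratios had an exact permutation p of 0.1, the smallest possible (0.14 adjusted over 7). The ratios of E2f1 to Rb1 (difference -0.65, exact p 0.4) and of Mybl2 to Lin9 (-0.45, exact p 0.5) overlapped between groups.

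**Figure D2:**
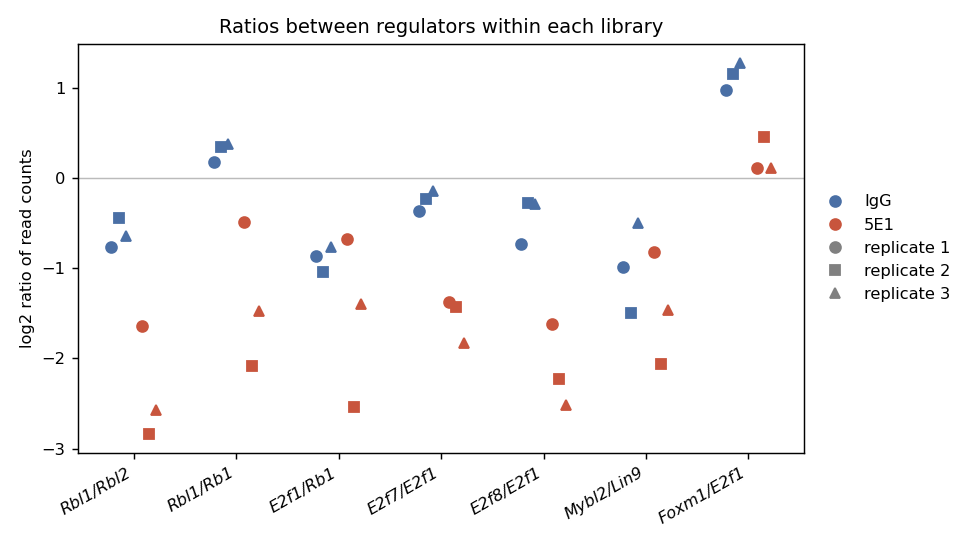
Log2 ratio of read counts between 2 regulators in each library (vertical axis), for 7 pairs, with IgG libraries in blue, 5E1 libraries in red and a marker shape per replicate. The groups are apart for Rbl1/Rbl2, Rbl1/Rb1, E2f7/E2f1, E2f8/E2f1 and Foxm1/E2f1, and overlap for E2f1/Rb1 and Mybl2/Lin9.

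Levels between genes were compared as CPM per kilobase of merged GENCODE M21 exons, which can exceed the length of the transcript made. In IgG, Rbl2 stood highest at 7.29 ± 0.259, followed by Foxm1 (6.05 ± 0.665) and Rbl1 (6.005 ± 0.462), and then E2f1 (4.99 ± 0.230) and Rb1 (4.85 ± 0.283). E2f8 (2.16 ± 0.325), Lin9 (1.70 ± 0.199), E2f2 (1.55 ± 0.139), E2f7 (1.47 ± 0.126) and Mybl2 (1.36 ± 0.378) formed the lower group (SD, n = 3 each). Foxm1 and Rbl1 did not differ beyond their spread, nor did E2f1 and Rb1, nor neighbours among the last 4. In 5E1 the order was Rbl2 (7.84 ± 0.891), Rb1 (4.93 ± 0.707), E2f1 (3.49 ± 1.58), Foxm1 (2.17 ± 0.793) and Rbl1 (2.04 ± 0.849). Lin9 (1.002 ± 0.192), E2f2 (0.802 ± 0.207), Mybl2 (0.632 ± 0.381), E2f8 (0.509 ± 0.372) and E2f7 (0.421 ± 0.221) came last. Foxm1 and Rbl1, at or above E2f1 and Rb1 in the IgG libraries, thus ranked below them in the 5E1 means. Neighbours in the 5E1 order differed by less than the larger SD of the pair, except Rbl2 from Rb1 and Rbl1 from Lin9.

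The 5E1 libraries differed among themselves in a repeated way. As a share of the IgG mean, E2f8 stood at 43.0%, 10.1% and 17.5% in 5E1 replicates 1 to 3, Rbl1 at 49.4%, 21.5% and 31.2%, and Foxm1 at 48.4%, 22.2% and 36.9%. Replicate 1 was the highest 5E1 library for 8 of the 10 regulators and replicate 2 the lowest for 7. Among all genes tested, replicate 1 was the highest 5E1 library for 34.4%, and among all genes called lower for 59.9%. Replicate 2 was the lowest 5E1 library for 6019 of 16198 genes tested and for 972 of 1791 genes called lower. Replicate 1 also had the fewest reads of the 3, almost no Y-linked reads, and the highest neutrophil sum (185 CPM, against 155 and 110.05 CPM). The hedgehog targets Ptch1, Hhip and Gli1 had means of 411, 521 and 125 CPM in IgG. In 5E1 replicates 1 to 3, Ptch1 measured 86.3, 82.1 and 102 CPM, Hhip 99.9, 83.3 and 120 CPM, and Gli1 58.3, 45.1 and 68.9 CPM. For each of these targets replicate 3 was the highest 5E1 library and replicate 2 the lowest. The part of these differences in the order of the 5E1 libraries was not tested.

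**Figure D3:**
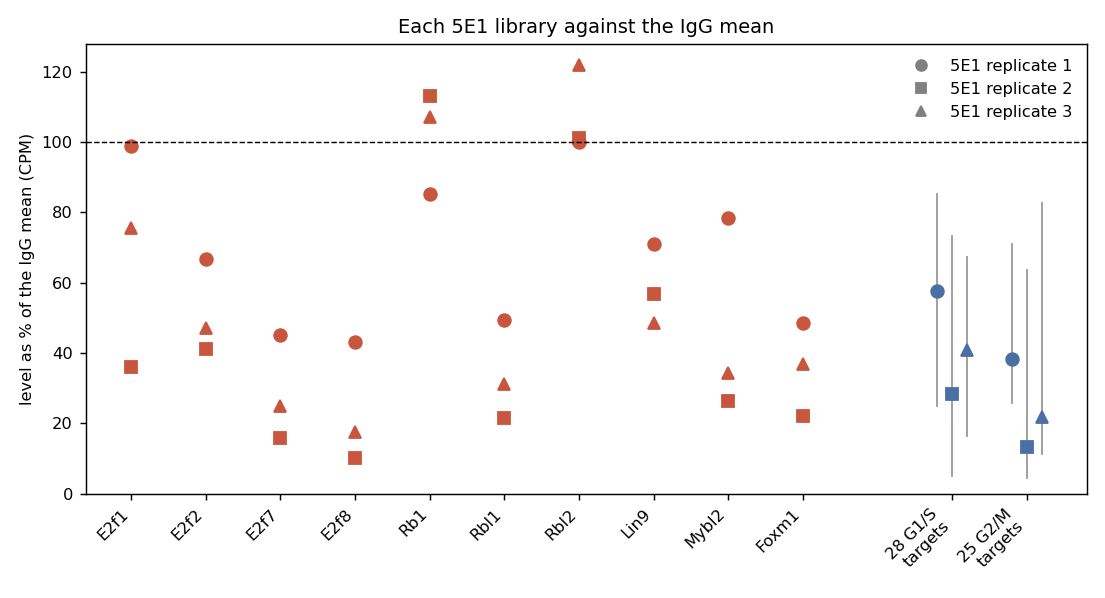
Level in each 5E1 library as a percentage of the mean of the 3 IgG libraries (dashed line at 100%), for the 10 regulators in red and, in blue, the median of 28 G1/S and 25 G2/M target genes with a grey line from the lowest to the highest gene. Replicate 1 (circles) is the highest 5E1 library for 8 of 10 regulators, and only Rb1 and Rbl2 have 5E1 libraries above 100%.

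Of the 13 relatives and partners, 4 fell and none rose by edgeR, with a median log2 fold change of -0.24. Over all genes tested, edgeR called 11.1% lower and 12.1% higher at the adjusted threshold. At an unadjusted edgeR p under 0.05, 5 relatives were lower and 2 higher, beside 2906 lower and 3008 higher of all 16198 genes tested. DESeq2 and limma-voom called no relative higher. E2f3, the other activator E2F gene, fell from 53.1 ± 3.16 to 33.4 ± 8.01 CPM (SD, n = 3 each), a log2 fold change of -0.67 with an edgeR adjusted p of 0.0105, and was called in all 15 alternatives. E2f6, a repressor gene that acts without pocket proteins (-0.43, adjusted p 0.0449), Tfdp1, a DP dimer partner gene (-0.26, 0.0382), and Rbbp4, the histone-binding MuvB subunit gene (-0.27, 0.0384), fell by less. Their calls ended in 7 to 9 of the 15 alternatives, and the number of relatives called lower was 1 or 2 without any 1 library. The pocket-bound repressor genes E2f4 (-0.06, adjusted p 0.735) and E2f5 (-0.38, 0.0651) did not pass, nor did Tfdp2 (0.28, 0.0599), the other DP gene. Of the other MuvB subunit genes, Lin37 had a log2 fold change of 0.18 (adjusted p 0.530), Lin52 of 0.41 (0.0937) and Lin54 of -0.24 (0.289). Dyrk1a, whose kinase promotes DREAM assembly, was level at 96.3 ± 2.83 and 97.3 ± 3.23 CPM (0.01, adjusted p 0.916). The B-MYB relatives Myb (0.35, 0.582, under 1.2 CPM in every library) and Mybl1 (-0.37, 0.251) did not pass either.

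**Figure D4:**
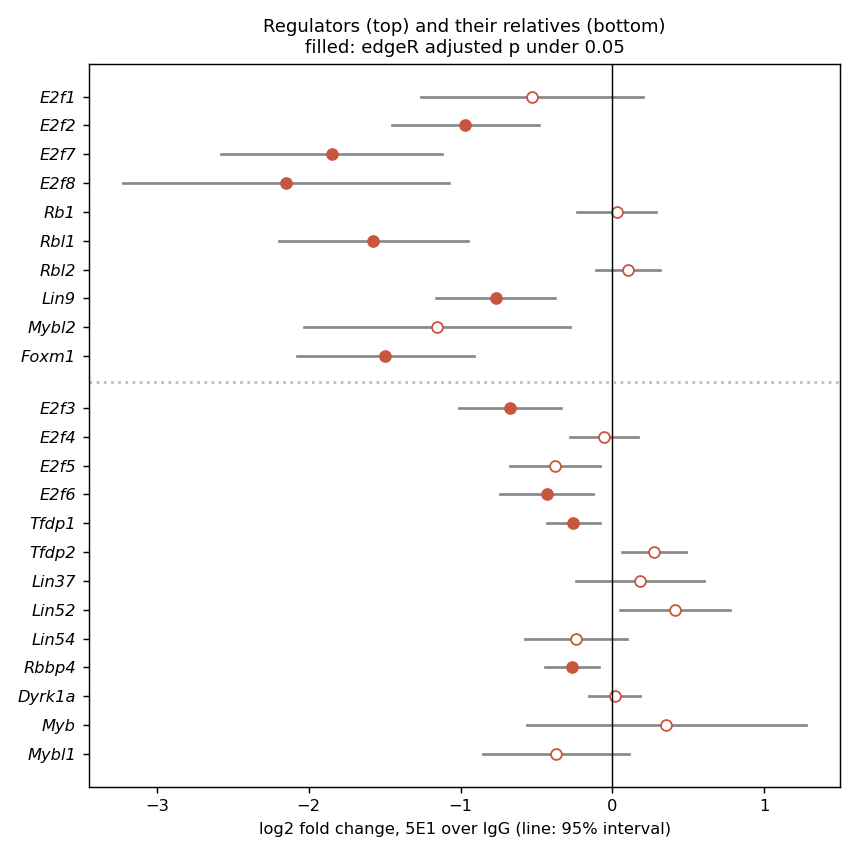
Log2 fold change, 5E1 over IgG, with its 95% interval (horizontal axis) for the 10 regulators (above the dotted line) and 13 relatives and partners (below it). Filled points have an edgeR adjusted p under 0.05: 6 of the 10 regulators and 4 of the 13 relatives, all left of 0.

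A list of 20 genes held cyclins, cyclin-dependent kinases, their inhibitors and the related genes Skp2, Cks1b, Ccnf and Fzr1, which all fell. Of the list 19 were tested (Cdkn2a did not pass the low-count filter), and 12 fell and 3 rose, with a median log2 fold change of -0.55. The shares over all genes tested were 11.1% lower and 12.1% higher. Ccnf, which encodes the F-box protein cyclin F, fell by 2.15 on the log2 scale (SE 0.33, edgeR adjusted p 0.00123). Ccne2, an E-type cyclin gene of the G1 to S step, fell by 1.36 (SE 0.21, adjusted p 0.00148). The kinase inhibitor genes were split, with Cdkn1a and Cdkn1c higher and Cdkn2c lower. Cdkn1a, the gene of a p53-inducible inhibitor, measured 42.6, 30.8 and 41.1 CPM in IgG and 76.9, 120.45 and 101 CPM in 5E1. All 5E1 libraries lay above all IgG libraries, as they did for 20.8% of genes tested, with a log2 fold change of 1.38 (SE 0.18, edgeR adjusted p 0.00151). Cdkn1c rose from 53.2 ± 9.89 to 101 ± 13.9 CPM (log2 fold change 0.93, adjusted p 0.00202), and Cdkn2d did not pass (-0.04, adjusted p 0.843). Cdkn2c, an inhibitor gene of the INK4 family, fell (-0.72, edgeR adjusted p 0.0141), and Cdkn1b (0.24, 0.150) and Cdkn2b (-0.41, 0.509) did not pass. The third gene that rose was the D-type cyclin gene Ccnd3 (0.39, edgeR adjusted p 0.0419), and these 4 were named after their values were seen. The other D-type cyclin genes fell, Ccnd1 by a log2 fold change of -1.40 (edgeR adjusted p 0.00462) and Ccnd2 of -0.43 (0.0295). Of their kinase genes, Cdk4 fell (-0.64, edgeR adjusted p 0.00604) and Cdk6 did not pass (-0.34, 0.133), all likewise named after their values were seen. The Ccnd3 call was lost without any 1 library except IgG replicate 3 (adjusted p 0.0525 to 0.143) and with library size alone (0.141). The Cdkn2c call was lost without 5E1 replicate 3 (0.0572), and Cdkn1b passed without 5E1 replicate 1 (0.0441). For Cdkn1a and Cdkn1c, 5E1 replicate 1 was the lowest and replicate 2 the highest of the 5E1 libraries, the reverse of 7 of the regulators. Without IgG replicate 3 or 5E1 replicate 3, 7 and 6 genes of this list fell.

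Downstream, 24 of 28 G1/S genes that E2Fs are known to regulate fell (median log2 fold change -1.34), and 24 of 25 G2/M genes known as MuvB and FOXM1 targets fell (median -2.19). Beside these counts, 11.1% of all genes tested were called lower. By edgeR none of either list rose, and DESeq2 and limma-voom called none higher. At an unadjusted edgeR p under 0.05, all 28 and all 25 were lower. At that threshold 2906 of all 16198 genes tested were lower and 3008 higher. The replication factor genes Mcm10 (-2.47, edgeR adjusted p 0.000301) and Cdc6 (-2.20, 0.000487), the helicase subunit gene Mcm4 (-0.79, 0.00106) and the histone methyltransferase gene Ezh2 (-0.79, 0.00105) had the smallest p of the first list. Pola1, a DNA polymerase subunit gene, had the largest (-0.80, adjusted p 0.134). In the second list these were the kinase regulator gene Cks2 (-1.60, 0.000216), the mitotic kinesin gene Kif20a (-1.9997, 0.000433) and the mitotic kinase genes Plk1 (-2.42, 0.000788) and Nek2 (-1.86, 0.000922). The topoisomerase gene Top2a had the largest p (-2.33, 0.0596). In 5E1 replicates 1 to 3 the median gene stood at 57.7%, 28.2% and 40.9% of the IgG mean for G1/S and at 38.2%, 13.3% and 21.7% for G2/M. Without 5E1 replicate 3, 14 of the G2/M genes fell. These lists were chosen with earlier results of these data known.

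The genes whose profiles lay nearest to a regulator were found by the root mean square difference between log2 CPM over the 6 libraries. Each gene was centred on its own mean, and unnamed gene models were left out of the search. Nearest to Foxm1 were Wdhd1 (0.050 log2 units) and Mcm3 (0.080), which encode DNA replication proteins, and Ncapd2 (0.054), a condensin subunit gene. Nearest to E2f8 were Kifc5b (0.071), a kinesin gene, Tceal6 (0.091) and Neil3 (0.11), a DNA glycosylase gene. Tceal6 had a mean of only 1.40 CPM in IgG and a log2 fold change of -2.28, so its profile rests on few reads. Mybl2 had no neighbour as close, the nearest being Mcm8 (0.15), Ube2t (0.19) and Tacc3 (0.22).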

How the data were processed

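RNA-seq counts of 6 libraries were analysed, 3 per group, grouped by their titles. Each library has its own file, in which the authors deposited unnormalised read counts for every gene symbol. The build was mm10, and the tools named, with no role, are HTSeq 0.6.0, STAR 2.5.0c, DESeq2 1.10.0, bedtools 2.17.0, R 3.5.1 and Picard 1.126, per the submitters' processing notes. The annotation, the strand setting and duplicate handling: not given in the sources used here. HTSeq's summary lines, 36.4% to 54.7% of a library's reads, were left out. Among them, reads in no feature made up 4.6% to 5.4% in IgG and 6.2% to 7.2% in 5E1. Reads aligned to several places made up 5.3% to 5.4% in IgG and 5.7% to 6.3% in 5E1. Unaligned reads made up 31.3% to 42.9% in IgG and 20.4% to 36.3% in 5E1. The part of these differences in the results was not tested.

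Counts were filtered with filterByExpr (minimum count 10, minimum total 15), scaled by TMM and tested with edgeR 4.0.16 in R 4.3.3 (glmQLFit with robust estimation, glmQLFTest, group only, two-sided, Benjamini-Hochberg over all genes). Standard errors (SE) were the fitted coefficient, without shrinkage, divided by the square root of F. Ratios used a prior count of 0.5 and an exact permutation test. The fit was checked on simulated counts. Alternatives used DESeq2 1.42.0, limma 3.58.1 and other filters, scalings, terms and left-out libraries. Replicates differed beyond sampling noise (chi-square over degrees of freedom 16.1 to 55.8). Gene models came from GENCODE M21 (GRCm38).

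The regulators and lists were chosen with earlier results of these data known. Named were all regulators, all 13 relatives, from each other list the 4 called genes with the smallest p and the gene with the largest, and the 3 nearest profiles of Foxm1, Mybl2 and E2f8. Further genes of the cyclin list were named after their values were seen, as stated there.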

Additional observations from a re-analysis of the deposited data

How the results depend on the processing

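Of the 10 regulators, between 5 and 8 were called lower and none higher in each of 15 alternatives and in the fit on the 4 libraries with Y-linked reads, which was chosen after seeing the data. E2f2, E2f7, Foxm1, Rbl1 and Lin9 were called in all 15. With library size alone, 3274 genes were called lower. With only the libraries that hold Y-linked reads, 1175 genes were called lower and 1 relative. With at least 5 CPM in 3 libraries, 2 relatives were called lower and 1 higher. With 1 library left out, genes called lower numbered 1073 to 1819 and higher 1221 to 1885. Relatives called lower then numbered 1 to 2 and higher 0 to 1, cyclin and kinase genes lower 6 to 13, and G2/M targets lower 14 to 25. The cause of these changes was not tested.

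Signs turned only for uncalled genes. With library size alone Rb1 (-0.12), Rbl2 (-0.045) and Dyrk1a (-0.13) were negative, and with no low-count filter Dyrk1a was (-0.0015). With 1 library left out Rb1 ran from -0.054 to 0.14, E2f4 from -0.099 to 0.014, Lin37 from -0.016 to 0.31, Dyrk1a from -0.015 to 0.036 and Cdkn2d from -0.17 to 0.031. The ratio of E2f1 to Rb1 ran from -1.08 to -0.15.

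The replicate block is of unclear meaning, since libraries of the same number did not deviate together (correlations of -0.093, -0.040 and -0.093), and no label ties the numbers. With the replicate block 7 regulators were called lower, Mybl2 among them (adjusted p 0.0398), and 1 relative in place of 4. At these depths E2f8 had 40 to 363 reads per library and Mybl2 56 to 228, which limits the precision of their values.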
